A study of Homo sapiens with 27 samples.

Results

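The integrated stress response is described here through 10 genes. They are the transcription factors ATF4, ATF3, ATF5, DDIT3, CEBPB and CEBPG, the transcription cofactor NUPR1 and the effectors TRIB3, CHAC1 and PPP1R15A. These genes were chosen by symbol, with earlier results of these data known, so counts of them beside shares of all genes are descriptions. All 10 were found among the 20987 genes of the table. In this response, kinases that sense endoplasmic reticulum stress, lack of amino acids, lack of heme or double-stranded RNA phosphorylate the translation factor eIF2, which slows protein synthesis in general and favours translation of the ATF4 mRNA. The ATF4 protein then pairs with C/EBP factors and switches on genes of amino acid synthesis and transport, tRNA charging and, later, a negative feedback. In prostate cancer cells the response is known as a route by which nutrient and lipid stress reach gene expression. RNA was measured here and protein was not, so the values say nothing of translation of ATF4.

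The libraries came from 3 human prostate cancer cell lines, LNCaP, which the labels call sensitive to androgen, and 22Rv1 and LNCaP95, which they call resistant to castration. Each line was cultured for 6 days, with no fresh medium, with 500 nM or 100 nM IPI-9119, which blocks FASN, the enzyme that builds fatty acids, or with its vehicle DMSO, and each of the 9 groups held 3 replicate libraries. Each line stands for itself alone, and no untreated cells are among the groups. The unit is the normalized count, reads of a gene after scaling of each library for depth, and libraries held 14757874 to 26578881 reads in genes. Nothing in the labels ties the replicates to cultures of their own, so p-values cover the spread among these libraries alone, and that spread may be technical.

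All libraries carried the mRNA of the prostate luminal marker KRT8 (10747 to 20641 normalized counts). The basal markers KRT5, TP63 and KRT14 reached at most 2.40, 6.19 and 17.3, the last in LNCaP in DMSO. Some libraries stood apart. Replicate 1 of LNCaP had more FASN mRNA than its group's other replicates at 500 nM (234767, against 133676 and 126294) and at 100 nM (227517, against 51994 and 45537), and its DMSO library had a summed level of 8 proliferation markers of 17614, against 6362 and 5524. Replicate 3 of 22Rv1 in DMSO had 18444 genes above 0, while the line's other libraries had 15585 to 15962. In replicate 2 of LNCaP95, mitochondrially encoded genes took 6.92% of values at 500 nM and 7.56% at 100 nM, while the line's other libraries had 1.78% to 3.75%. Counts of members are given below with and without these libraries.

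Promoter sequence was looked at because 8 of the members fell together at 100 nM in LNCaP, as described further on. RefSeq windows (build GRCh38.p14) were at hand for 9 members, all but NUPR1. In the 250 bases before each annotated start, both strands were searched for the C/EBP-ATF response element TGATGNAAN, to which ATF4 binds with a C/EBP partner, and for the cAMP response element TGACGTCA. The first was found in CHAC1, in 1 of the 2 windows of CEBPG and in 1 of the 2 windows of ATF3, and in 3.13% of all 35116 windows. The second was found in PPP1R15A, and in 1.65% of all windows. ATF3 holds the first element but was not called at 100 nM in LNCaP, and its window is not printed. ATF4, ATF5, DDIT3, CEBPB and TRIB3 were called lower there, and neither element was found in their windows. No member's window held both, and in PPP1R15A the match reads the same on both strands, so it is 1 site. The window of CHAC1, the member with the largest fall in LNCaP, is chr15:40953221-40953470, that of CEBPG chr19:33373863-33374112, and that of PPP1R15A, which was not called at 100 nM in LNCaP, chr19:48872171-48872420, all on the plus strand. They are shown for the letters in capitals, the element on the opposite strand 210 to 202 bases before the start in CHAC1, the element on the same strand 42 to 34 bases before the start in CEBPG, and the cAMP response element 58 to 51 bases before the start in PPP1R15A.
CHAC1: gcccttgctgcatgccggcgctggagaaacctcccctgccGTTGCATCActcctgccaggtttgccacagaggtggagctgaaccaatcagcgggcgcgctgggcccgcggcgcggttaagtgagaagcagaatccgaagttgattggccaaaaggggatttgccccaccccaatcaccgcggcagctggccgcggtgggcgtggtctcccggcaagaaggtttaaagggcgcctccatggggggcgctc
CEBPG: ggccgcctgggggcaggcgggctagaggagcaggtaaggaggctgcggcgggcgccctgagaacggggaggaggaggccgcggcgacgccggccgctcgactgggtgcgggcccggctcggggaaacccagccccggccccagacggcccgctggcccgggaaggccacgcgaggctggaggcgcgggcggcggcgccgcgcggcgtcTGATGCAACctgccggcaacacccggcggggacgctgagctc
PPP1R15A: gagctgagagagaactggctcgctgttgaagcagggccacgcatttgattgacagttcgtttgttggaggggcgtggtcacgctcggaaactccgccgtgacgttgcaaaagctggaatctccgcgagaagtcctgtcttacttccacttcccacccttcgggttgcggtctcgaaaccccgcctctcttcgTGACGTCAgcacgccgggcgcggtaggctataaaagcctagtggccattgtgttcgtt
These matches describe letters and show no binding. The part of the elements in the members' falls was not tested.

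**Figure D1:**
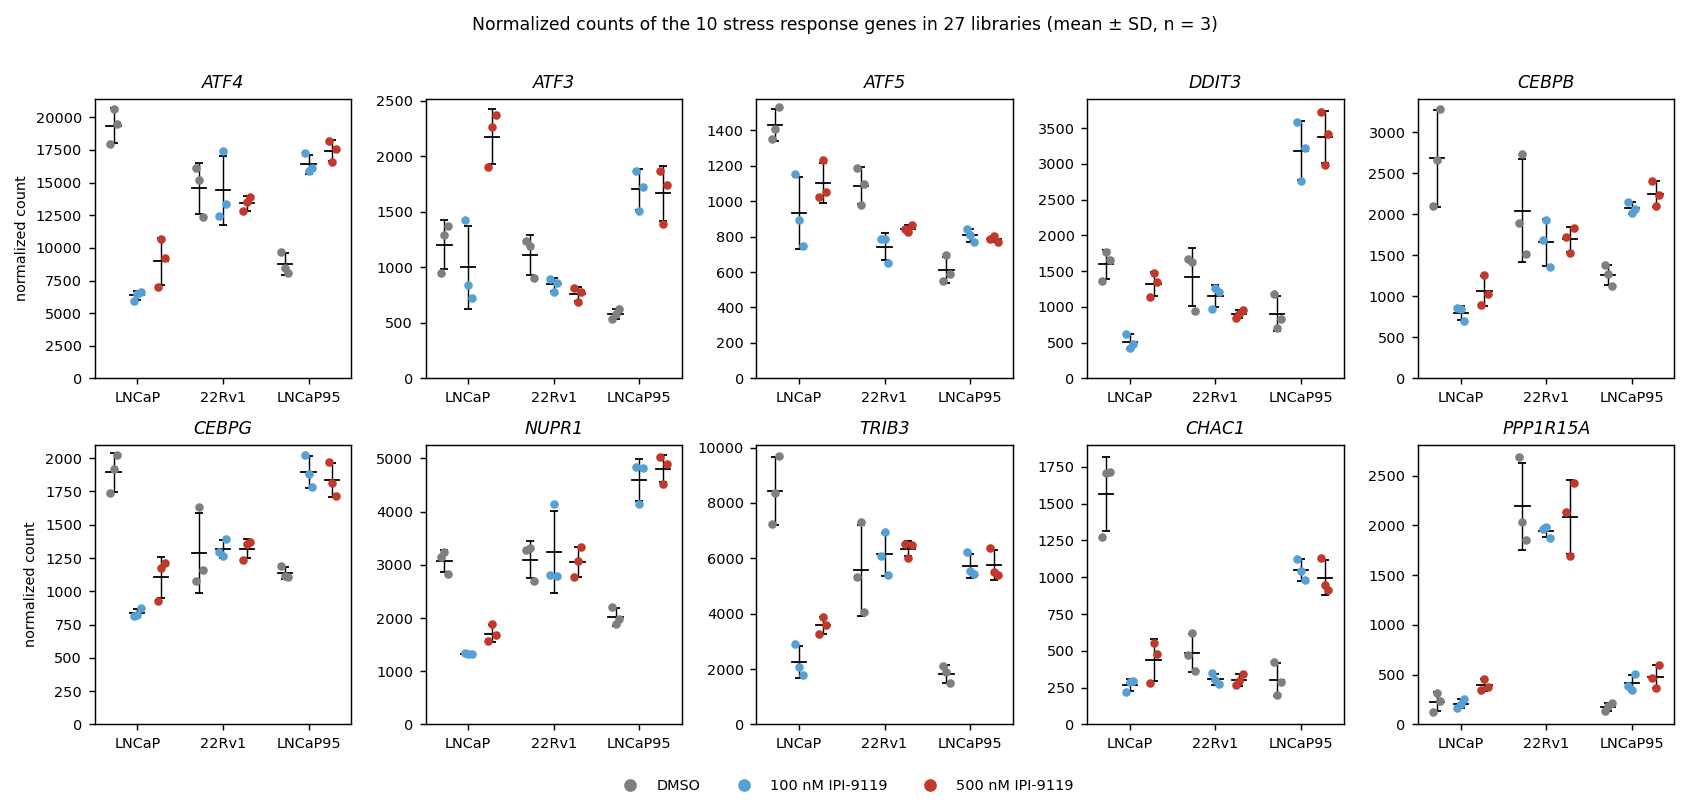
Normalized counts of the 10 genes (y axis, linear from 0, own scale for each gene) in the 3 lines (x axis), with DMSO, 100 nM and 500 nM from left to right in each line; points are libraries, and bars are the mean ± SD of 3. In LNCaP95 the treated libraries of every gene lie above those in DMSO, in LNCaP those of ATF4, ATF5, CEBPB, CEBPG, NUPR1, TRIB3 and CHAC1 lie below, and PPP1R15A is high in all libraries of 22Rv1.

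In LNCaP95, all 10 genes rose at both doses. The 500 nM comparison with DMSO called 10 of 10 members higher, where 28.2% of 12844 genes tested were called higher, 24.1% lower and 52.3% in either direction. The 100 nM comparison with DMSO also called 10 of 10 higher, where 28.2% of genes were called higher, 24.1% lower and 52.3% in either direction. Libraries did not overlap for 10 of 10 members, all higher, at each dose, where 31.6% of genes were higher without overlap at 500 nM and 27.3% lower, and 32.2% and 28.3% at 100 nM. A gene was called changed at a limma p under 0.05 after Benjamini-Hochberg adjustment over all genes tested. The median log2 difference of the members was 1.34 at 500 nM and 1.20 at 100 nM, while that of all genes was 0.03 at each dose. The 3 DMSO libraries serve both doses, so one dose is no independent repeat of the other.

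ATF4, the central factor of the response, had 18195, 16588 and 17572 normalized counts at 500 nM in LNCaP95, against 9700.4, 8479 and 8053 in DMSO. At 100 nM its libraries had 17237.5, 15863 and 16137. Every treated library was above every DMSO library, and the level at 500 nM was 2.00-fold that in DMSO (log2 SE 0.087, limma adjusted p = 1.57e-06). DDIT3, which encodes CHOP, a factor that promotes cell death when stress lasts, had 3724, 2990.4 and 3414 at 500 nM, against 1184, 700.5 and 836 in DMSO. At 100 nM it had 3581, 2758 and 3219.5. The groups did not overlap, and the rise of DDIT3 at 500 nM (log2 1.92 ± 0.16, limma adjusted p = 9.51e-07) was the largest of the 10 at that dose. ATF3, a stress-induced factor that can repress or activate its targets, had 1865, 1386 and 1741 at 500 nM, against 532, 578 and 628 in DMSO, a 2.85-fold level (log2 1.51 ± 0.11, limma adjusted p = 5.13e-07).

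The other factors and the cofactor NUPR1 rose as well in LNCaP95. NUPR1, a small chromatin-binding stress protein, had 5020.1, 4521 and 4887 at 500 nM, against 2202, 1881 and 1974 in DMSO, a log2 difference of 1.25 ± 0.084. CEBPB and CEBPG, C/EBP factors that form pairs with ATF4, had log2 differences of 0.84 ± 0.082 and 0.69 ± 0.075 at 500 nM. ATF5, a relative of ATF4 linked to mitochondrial stress, had the smallest rise, with 784, 806 and 768 at 500 nM, against 550.3, 693 and 591 in DMSO (log2 0.37 ± 0.088, limma adjusted p = 0.00346). Exons of ATF5 overlap those of NUP62 on the opposite strand, and no source used here gives the strand setting of the counting, which leaves its values uncertain. NUP62 had 1031 ± 21.6 normalized counts at 500 nM and 1364 ± 204 in DMSO (SD, n = 3), and its part in the values of ATF5 was not tested.

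Among the effectors, CHAC1, an enzyme that breaks down glutathione, had 1130.4, 950.1 and 912 normalized counts at 500 nM in LNCaP95, against 427, 201 and 287 in DMSO, a 3.40-fold level (log2 1.77 ± 0.19, limma adjusted p = 8.88e-06). TRIB3, a pseudokinase that binds ATF4 and restrains it, had 6361, 5507 and 5406 at 500 nM, against 2109, 1897 and 1487 in DMSO, a 3.17-fold level (log2 1.66 ± 0.11). PPP1R15A, which encodes GADD34, the subunit that guides a phosphatase to eIF2 and ends the response, had 471, 366 and 601 at 500 nM, against 133, 183 and 217 in DMSO (log2 1.43 ± 0.20, limma adjusted p = 6.09e-05). For all 3 effectors the libraries of the groups stood apart. Without replicate 2 of both treated groups, a setting chosen after seeing the data, the counts were again 10 of 10 higher at 500 nM and 10 of 10 at 100 nM. In that setting 5797 and 5731 of 12744 genes were called in either direction.

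Proliferation markers moved with these rises. All 8 on the list were called lower at each dose in LNCaP95, with a summed level of 13270 to 19158 normalized counts at 500 nM and 14137 to 18536 at 100 nM, against 45932 to 50762 in DMSO, and their part in the members' rise was not tested. Bulk libraries cannot tell a change in the share of cells of one state from a change of RNA per cell.

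In LNCaP most members fell. At 500 nM, 6 of 10 were called lower and 2 higher than in DMSO, where 9.83% of 12837 genes were called lower, 11% higher and 20.8% in either direction. At 100 nM, 8 of 10 were called lower and 0 higher, where 11.6% of genes were called lower, 13.7% higher and 25.3% in either direction. The 2 called higher at 500 nM and the 2 not called at 100 nM were the same pair, ATF3 and PPP1R15A. Libraries did not overlap for 7 members that were lower and 2 that were higher at 500 nM, where 21.3% of genes were lower without overlap and 19.6% higher. At 100 nM they did not overlap for 8 that were lower and 0 that were higher, where the shares of all genes were 18.6% and 18.2%. The median log2 difference of the members was −0.82 at 500 nM and −1.41 at 100 nM, and that of all genes was −0.01 and 0.00 to 2 decimals.

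ATF4 had 7037, 10663 and 9196 normalized counts at 500 nM in LNCaP, against 17940.1, 20609 and 19498 in DMSO. Its libraries at 100 nM had 5959, 6477 and 6635. All treated libraries were below all DMSO libraries, with a log2 difference of −1.13 ± 0.13 at 500 nM (limma adjusted p = 0.000243) and −1.60 ± 0.13 at 100 nM (limma adjusted p = 4.08e-05). ATF4 has 4 annotated pseudogenes, with which its reads could have been shared. CEBPB had 899.6, 1261 and 1030.1 at 500 nM, against 2098, 2669 and 3282 in DMSO, a log2 difference of −1.32 ± 0.17. CEBPG, whose promoter is printed above, had 928, 1173 and 1211 at 500 nM, against 1739, 1916 and 2027 in DMSO (log2 −0.79 ± 0.11). NUPR1 had 1568, 1879 and 1672 at 500 nM, against 3144, 3234 and 2831 in DMSO (log2 −0.85 ± 0.089). Libraries of these 3 genes did not overlap between treated cells and DMSO, at either dose.

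DDIT3 parted the doses. Its 500 nM libraries had 1139, 1469 and 1352 normalized counts, against 1366, 1761 and 1654 in DMSO, with overlapping groups and no call (log2 −0.27 ± 0.15, 95% CI −0.61 to 0.07, limma adjusted p = 0.236). The 100 nM libraries had 628, 419 and 486, a 3.14-fold fall from DMSO (log2 −1.65 ± 0.15, limma adjusted p = 7.32e-05). Exons of DDIT3 overlap those of MARS and MBD6 on the opposite strand. As for ATF5, the unknown strand setting leaves the values of DDIT3 uncertain, in every line. MARS, a tRNA synthetase gene, was lower at 500 nM by a log2 difference of −0.81 ± 0.11 and at 100 nM by −0.89 ± 0.11. Its part in the values of DDIT3 was not tested. ATF5 had a log2 difference of −0.38 ± 0.14 at 500 nM, which was not called (limma adjusted p = 0.0823), and fell at 100 nM (log2 −0.64 ± 0.14, limma adjusted p = 0.00898).

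The effectors CHAC1 and TRIB3 fell at both doses in LNCaP. CHAC1 had 279, 554 and 482 normalized counts at 500 nM, against 1275, 1707 and 1717 in DMSO, and 223, 285 and 298 at 100 nM. The groups did not overlap at either dose, with a 3.68-fold fall at 500 nM (log2 −1.88 ± 0.23, limma adjusted p = 0.000279) and a 5.80-fold fall at 100 nM (log2 −2.54 ± 0.23, limma adjusted p = 5.65e-05). TRIB3 had 3259, 3880.2 and 3607 at 500 nM, against 7233, 8371 and 9689 in DMSO, and 2889, 2076 and 1775 at 100 nM. Its log2 difference was −1.23 ± 0.16 at 500 nM and −1.93 ± 0.16 at 100 nM, and no treated library reached the DMSO range.

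ATF3 and PPP1R15A went the other way at 500 nM. ATF3 had 1899, 2259.5 and 2369 normalized counts at 500 nM in LNCaP, against 949.8, 1287 and 1370.2 in DMSO, a 1.82-fold level with no overlap (log2 0.87 ± 0.22, limma adjusted p = 0.0177). At 100 nM its libraries had 1425, 842 and 727, which overlapped DMSO (log2 −0.31 ± 0.22, limma adjusted p = 0.313). The call for ATF3 at 500 nM was lost without the 500 nM replicate 2 (limma adjusted p = 0.0596) or 3 (0.0660), and at 100 nM ATF3 was called lower once replicate 1 of that dose was left out (log2 −0.60, limma adjusted p = 0.0246). PPP1R15A had 343, 461 and 379 at 500 nM, against 127, 319 and 234 in DMSO (log2 0.88 ± 0.28, limma adjusted p = 0.0467), and 166, 205 and 254 at 100 nM (log2 −0.05 ± 0.28, limma adjusted p = 0.919). The PPP1R15A call at 500 nM was lost without DMSO replicate 1 (limma adjusted p = 0.0690, log2 0.52), without DMSO replicate 3 (0.0869), and without the 500 nM replicate 1 (0.0769), 2 (0.147) or 3 (0.102). It was also lost with edgeR on whole reads (adjusted p = 0.0610) and, with limma, with no filter on low values (0.0562) or with only the 6 libraries compared (0.0648).

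With replicates 2 and 3 of LNCaP only, leaving out the replicate 1 libraries that stood apart, 9 of 10 members were called at 500 nM, 2 higher and 7 lower, and 9 of 10 at 100 nM, all 9 lower. In that setting 3753 of 12677 genes were called in either direction at 500 nM and 4545 of 12677 at 100 nM, more than with all libraries. Other measures were described in LNCaP as well. Of the 8 proliferation markers, 1 was called higher at 500 nM and 6 at 100 nM, where 11% and 13.7% of all genes were. The count at 500 nM is near the share of all genes. Summed levels of the 8 were 14239.5 to 17148 (500 nM) and 14852 to 27360.2 (100 nM), against 5524 to 17614 in DMSO, so both ranges overlapped that in DMSO. Of 12 markers of basal, fibroblast and blood cells, 5 passed the filter on low values, and at each dose 3 were called higher and 1 lower. Their summed level was 518 to 690 (500 nM) and 577 to 705 (100 nM), against 304 to 359 in DMSO, and the list was uneven. COL3A1 averaged 142 at 500 nM and 160 at 100 nM, against 17.5 in DMSO, CD68 averaged 71.8 and 84.4, against 19.4, and COL1A1 averaged 395 and 379, against 271. The basal marker KRT14 averaged 2.45 at 500 nM and 3.80 at 100 nM, against 14.9 in DMSO. KRT5, TP63 and PTPRC did not exceed 1.57 in any LNCaP library. In LNCaP95, by contrast, LUM was between 780 and 1548 and PTPRC between 65.4 and 139 in all libraries, treated or not. The part of these markers in the members' falls was not tested.

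In 22Rv1 few members changed. At 500 nM, 2 of 10 were called lower and 0 higher, where 3.5% of 13563 genes were called lower, 3.47% higher and 6.97% in either direction. ATF3 had 812, 686 and 774 normalized counts at 500 nM, against 1240.1, 1192 and 904.5 in DMSO (log2 −0.54 ± 0.13, limma adjusted p = 0.0255). CHAC1 had 267, 293 and 343 at 500 nM, against 472, 624 and 365 in DMSO (log2 −0.67 ± 0.18, limma adjusted p = 0.0462). Libraries did not overlap for 3 members at each dose, ATF3, ATF5 and CHAC1, all lower, where 16% of genes were lower without overlap at 500 nM and 15.2% higher, and 13.7% and 11% at 100 nM. At 100 nM, 1 of 10 was called lower and 0 higher, where 3.36% of genes were called lower, 3.19% higher and 6.55% in either direction, and this was ATF5, with 788, 788 and 653 at 100 nM, against 1189, 979 and 1094 in DMSO (log2 −0.55 ± 0.11, limma adjusted p = 0.0130). NUP62, which overlaps ATF5, also fell at 100 nM in 22Rv1 (log2 −0.47 ± 0.087, limma adjusted p = 0.00903), and its part in the fall of ATF5 was not tested.

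The 22Rv1 calls were not firm. ATF3 at 500 nM was lost without DMSO replicate 1 (limma adjusted p = 0.0724) or 2 (0.106), or without the 500 nM replicate 1 (0.0604), 2 (0.117) or 3 (0.0789). CHAC1 at 500 nM was lost without the same 5 libraries, at adjusted p-values of 0.0794 and 0.169 for the DMSO libraries 1 and 2 and 0.171, 0.135 and 0.0760 for the 500 nM libraries 1, 2 and 3. Without the DMSO replicate 3 that stood apart, 3 of 10 members were lower at 500 nM, with DDIT3 added (log2 −0.87, limma adjusted p = 0.00466), and 2 of 10 at 100 nM, namely ATF3 (0.0410) and CHAC1 (0.0299), while ATF5 missed the threshold (0.0506). In that setting 494 of 13466 genes were called in either direction at 500 nM and 402 of 13466 at 100 nM. DDIT3 had 845, 906 and 951 at 500 nM in 22Rv1, against 1668, 1625 and 944 in DMSO, so its low DMSO value is that of the library that stood apart. ATF4 had 12808, 13538.5 and 13881 at 500 nM, against 16134, 15217 and 12370.3 in DMSO, overlapping groups with a log2 difference of −0.11 and a 95% CI of −0.40 to 0.18. TRIB3 (0.23, 95% CI −0.14 to 0.60), CEBPG (0.06, −0.24 to 0.36), NUPR1 (−0.02, −0.35 to 0.31), CEBPB (−0.23, −0.64 to 0.17) and PPP1R15A (−0.07, −0.39 to 0.26) were not called at 500 nM either. Of the proliferation markers in 22Rv1, 2 of 8 were called lower at 500 nM and 0 at 100 nM.

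**Figure D2:**
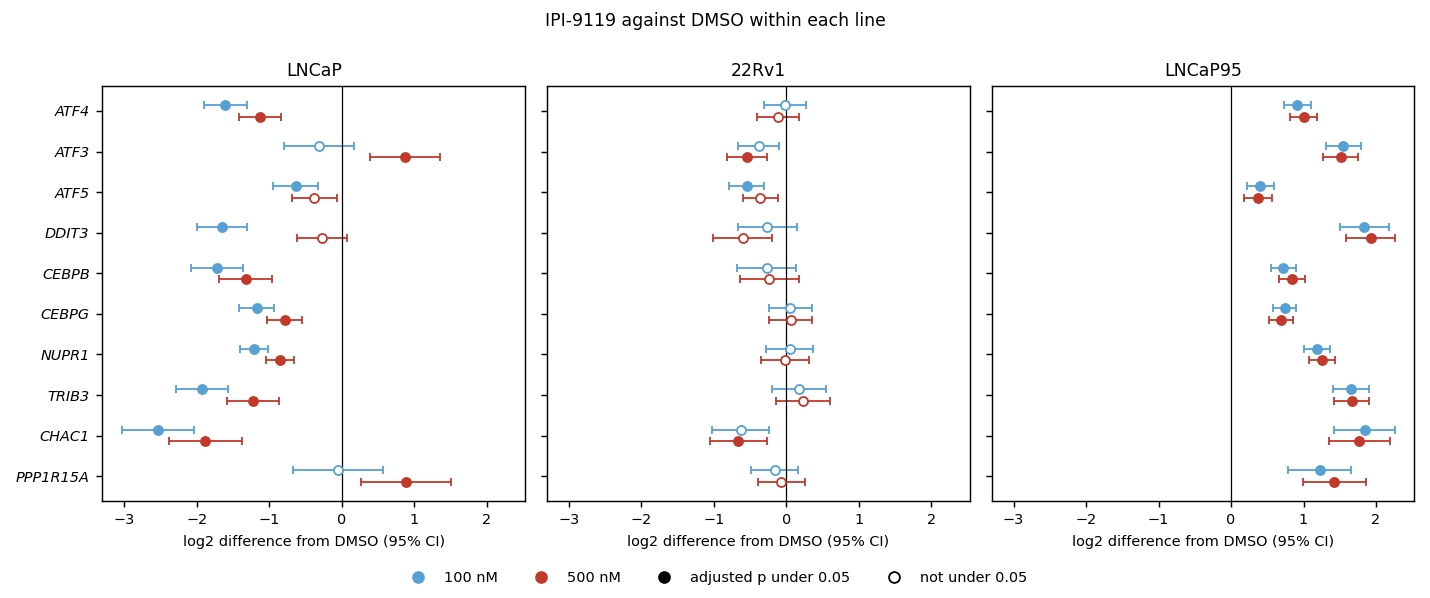
Log2 difference of 100 nM (blue) and 500 nM (red) from DMSO (x axis, on the log2(value + 1) scale, bars 95% CI) for each gene (y axis) in the 3 lines; filled points have an adjusted p under 0.05. All 20 points of LNCaP95 are right of 0, and in LNCaP the points of ATF3 and PPP1R15A at 500 nM, 0.87 and 0.88, are the only ones right of 0.

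Between the doses, 1 of 10 members was called in LNCaP. Set against 100 nM, 500 nM gave a higher mean for all 10 members, with a median log2 difference of 0.57, against −0.01 for all genes. DDIT3 was called higher at 500 nM (1320 ± 167 normalized counts at 500 nM and 511 ± 106 at 100 nM, SD, n = 3 each; log2 1.38 ± 0.15, limma adjusted p = 0.0240). It was the single gene called among 12837 tested, which is 0.00779%. Libraries did not overlap for 8 of 10 members, all higher at 500 nM, where 8.6% of genes were higher without overlap and 9.77% lower. The other 9 members were not called at the adjusted threshold, but 8 of them had an unadjusted limma p under 0.05, as did 1463 of all 12837 genes. Of these, ATF3 had a log2 difference of 1.18 ± 0.22, PPP1R15A 0.93 ± 0.28 and TRIB3 0.70 ± 0.16, and the 95% CI of ATF5 (−0.05 to 0.57) included 0.

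This comparison rested on its libraries. With the replicate numbers as a block, the pairing being met by these 2 groups, DDIT3 was no longer called (limma adjusted p = 0.120) and 0 members were. It was also lost without the 100 nM replicate 2 (limma adjusted p = 0.177) or 3 (0.165) and without the 500 nM replicate 2 (0.234) or 3 (0.221). Without the 100 nM replicate 1, 3 members were called higher, DDIT3, ATF3 (log2 1.47, limma adjusted p = 0.00823) and TRIB3 (0.90, 0.0262). With replicates 2 and 3 only, 10 of 10 members were called higher at 500 nM, among 755 of 12677 genes called in either direction.

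In 22Rv1 and LNCaP95, 0 of 10 members were called between the doses, and 0% of 13563 and 12844 genes were. No member had an unadjusted limma p under 0.05 in either line, where 152 genes had one in 22Rv1 and 95 in LNCaP95, and edgeR and DESeq2 on whole reads also called 0 genes. Libraries did not overlap for ATF5, higher at 500 nM, and DDIT3, lower, in 22Rv1, where 2.09% of genes were higher without overlap and 2.63% lower. In LNCaP95 they overlapped for all 10 members, and 2.4% and 2.27% of genes were higher and lower without overlap. In LNCaP95 the 95% CI of the difference of DDIT3 was −0.25 to 0.42, that of CHAC1 −0.50 to 0.34 and that of ATF4 −0.10 to 0.28. These intervals bound the step between doses and do not show that the doses act alike.

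**Figure D3:**
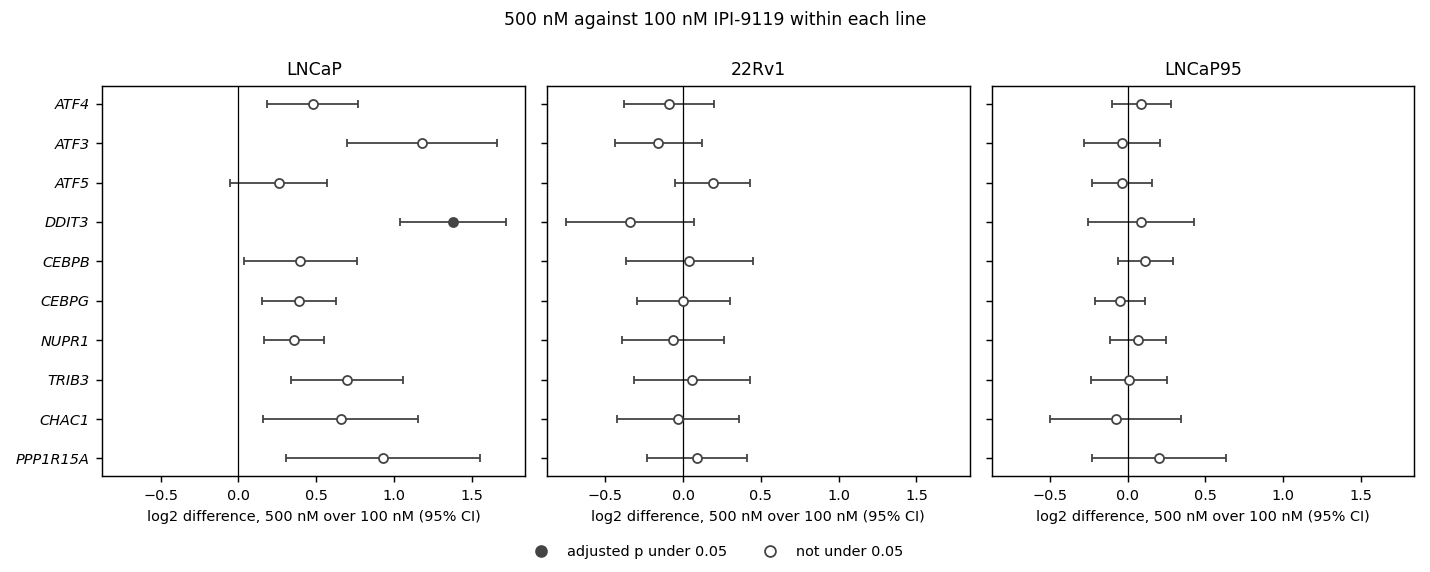
Log2 difference of 500 nM over 100 nM (x axis, bars 95% CI) for each gene (y axis) in the 3 lines; the filled point has an adjusted p under 0.05. In LNCaP all 10 points lie right of 0, with DDIT3 at 1.38, and in 22Rv1 and LNCaP95 every interval includes 0.

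Whether IPI-9119 moved the members differently in the lines was tested as the difference between the lines' log2 differences from DMSO, in 1 limma fit of all 27 libraries. At 500 nM the effect was higher in LNCaP95 than in LNCaP for 9 of 10 members, where 19.8% of 11761 genes had a higher effect, 19.1% a lower one and 38.9% either. The widest gap was that of CHAC1 (3.65 ± 0.33, limma adjusted p = 1.45e-08), followed by TRIB3 (2.89 ± 0.24) and DDIT3 (2.20 ± 0.27). PPP1R15A, which rose in both lines, was not called (0.54 ± 0.35, limma adjusted p = 0.234), though it was without LNCaP DMSO replicate 1 (0.91, limma adjusted p = 0.0184). ATF3 had a small gap (0.65 ± 0.26, limma adjusted p = 0.0474), which was lost in 12 of 22 alternatives, including those without LNCaP DMSO replicate 2 (0.101) or 3 (0.124), LNCaP 500 nM replicate 1 (0.118) or 2 (0.0597), LNCaP95 DMSO replicate 1 (0.0975) or 2 (0.0739) and LNCaP95 500 nM replicate 1 (0.116) or 3 (0.0886).

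At 100 nM all 10 members had a higher effect in LNCaP95 than in LNCaP, where 23.2% of genes had a higher effect, 22.3% a lower one and 45.6% either, from 4.38 ± 0.33 for CHAC1 to 1.04 ± 0.17 for ATF5. LNCaP95 also had a higher effect than 22Rv1 for 10 of 10 members at 500 nM, where 13% of genes had a higher effect, 12.4% a lower one and 25.4% either. The same held for 10 of 10 at 100 nM, where 12.3% had a higher effect, 12.3% a lower one and 24.6% either. The gap to 22Rv1 at 500 nM was widest for DDIT3 (2.53 ± 0.27) and CHAC1 (2.43 ± 0.33) and narrowest for CEBPG (0.63 ± 0.16). Among these 4 sets of differences PPP1R15A at 500 nM against LNCaP was the one member not called.

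22Rv1 and LNCaP also differed. At 500 nM, 6 of 10 members had a higher effect in 22Rv1 than in LNCaP and 1, ATF3, a lower one (−1.41 ± 0.26, limma adjusted p = 0.000499), where 6.79% of genes had a higher effect, 7.52% a lower one and 14.3% either. TRIB3 had the widest gap (1.46 ± 0.24), and CHAC1 (1.21 ± 0.33, limma adjusted p = 0.0136) was lost without LNCaP 500 nM replicate 1 (0.0510). PPP1R15A was not called (−0.95 ± 0.35, limma adjusted p = 0.0716) and became so without LNCaP DMSO replicate 2 (0.0160). At 100 nM, 7 of 10 had a higher effect in 22Rv1, where 8.59% of genes had a higher effect, 10.5% a lower one and 19.1% either, and ATF3, ATF5 and PPP1R15A were not called. Scaling all libraries to equal totals would shift the median of all genes in the differences between 22Rv1 and LNCaP by −0.16 at 500 nM and −0.13 at 100 nM, less than each called difference. With replicates 2 and 3 of LNCaP only, 7 and 10 members were called at 500 nM for 22Rv1 and LNCaP95 against LNCaP, where 2033 and 4584 of 11720 genes were. At 100 nM it was again 7 and 10 members, where 2847 and 5473 of 11720 genes were called.

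The lines also differed in DMSO. LNCaP95 in DMSO had a lower level than LNCaP in DMSO for 9 of 10 members, where 32.5% of 14026 genes were called lower, 34% higher and 66.5% in either direction. The widest gaps were those of CHAC1 (305 ± 114 normalized counts in LNCaP95 and 1566 ± 252 in LNCaP, SD, n = 3 each; log2 −2.41 ± 0.23) and TRIB3 (1831 ± 317 in LNCaP95 and 8431 ± 1229 in LNCaP; log2 −2.21 ± 0.17). PPP1R15A was not called (178 ± 42.3 in LNCaP95 and 227 ± 96.5 in LNCaP; limma adjusted p = 0.335), and was called lower without LNCaP DMSO replicate 1 (log2 −0.65, limma adjusted p = 0.0160). Against 22Rv1 in DMSO, LNCaP95 was lower for 9 of 10 members, all but CEBPG (log2 −0.16 ± 0.11, limma adjusted p = 0.215), where 40.8% of genes were called lower, 35.4% higher and 76.1% in either direction. Here DDIT3 was lost without LNCaP95 DMSO replicate 2 (0.0510), CHAC1 without that library (0.100) or 22Rv1 DMSO replicate 2 (0.0717), and CEBPG was gained without 22Rv1 DMSO replicate 1 (0.0417). Libraries of LNCaP95 and LNCaP did not overlap for 9 members, all lower, where 33.7% of genes were lower without overlap and 35.4% higher. Those of LNCaP95 and 22Rv1 did not overlap for 7, all lower, where the shares were 41.8% and 36.4%. Equal totals would shift the median of all genes by 0.21 in the comparison of LNCaP95 with LNCaP and by 0.14 in that with 22Rv1, upwards, and the calls of the members held in both.

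PPP1R15A set 22Rv1 apart. It had 2682, 2038 and 1853 normalized counts in DMSO in 22Rv1, against 127, 319 and 234 in LNCaP and 133, 183 and 217 in LNCaP95. The level in 22Rv1 was 10.2-fold that in LNCaP (log2 3.35 ± 0.25, limma adjusted p = 1.26e-11), and the treated 22Rv1 libraries, from 1691 to 2431, were as high. The other members did not share this. Against LNCaP in DMSO, 22Rv1 in DMSO was higher for 1 of 10 members, PPP1R15A, and lower for 6, where 39.3% of 14026 genes were called higher, 35.5% lower and 74.8% in either direction. Libraries did not overlap for PPP1R15A, higher, and 4 members that were lower, where 38.8% of genes were higher without overlap and 35.1% lower. CHAC1 was the lowest relative to LNCaP (487 ± 130 in 22Rv1 and 1566 ± 252 in LNCaP; log2 −1.70 ± 0.24). Without 22Rv1 DMSO replicate 3, ATF4 (0.0540) and CEBPB (0.274) were no longer called, and CEBPB was also lost without LNCaP DMSO replicate 2 (0.0710) or 3 (0.220) or 22Rv1 DMSO replicate 1 (0.0880), with equal totals (0.0702) and with only these 2 lines fitted (0.0689). All 8 proliferation markers were called higher in DMSO in 22Rv1, and all 8 in LNCaP95, than in LNCaP, and their part in the differences of the members was not tested.

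Over the 9 groups, the order of the levels was as follows. LNCaP at 100 nM had the lowest mean of 6 members, ATF4, DDIT3, CEBPB, CEBPG, NUPR1 and CHAC1, and LNCaP95 in DMSO had the lowest of the other 4. LNCaP in DMSO had the highest mean of 5 members, ATF4, ATF5, CEBPB, TRIB3 and CHAC1. For ATF4 the means ran from 6357 (LNCaP at 100 nM) over 8744 (LNCaP95 in DMSO), 8965 (LNCaP at 500 nM), 13409 (22Rv1 at 500 nM), 14405 (22Rv1 at 100 nM), 14574 (22Rv1 in DMSO), 16413 (LNCaP95 at 100 nM) and 17451 (LNCaP95 at 500 nM) to 19349 (LNCaP in DMSO). The libraries of neighbours in this order overlapped except at 2 steps, from LNCaP at 100 nM to LNCaP95 in DMSO and from LNCaP at 500 nM to 22Rv1 at 500 nM. DDIT3 spanned 6.61-fold, from 511 in LNCaP at 100 nM to 3376 in LNCaP95 at 500 nM, and both treated groups of LNCaP95 lay above all other groups with no overlap. PPP1R15A spanned 12.3-fold, ATF5 2.34-fold and CEBPG 2.27-fold.

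The members' targets and partners were described from gene lists. Of 14 amino acid synthesis targets of ATF4 tested in LNCaP, 13 were called lower and 0 higher at 500 nM, and 12 and 0 at 100 nM, with a median log2 difference of −1.09 at 500 nM. PCK2, a mitochondrial enzyme that makes phosphoenolpyruvate, had 5237 normalized counts at 500 nM and 18528 in DMSO on average (log2 −1.83 ± 0.11), and ASNS, asparagine synthetase, had 5514 at 500 nM and 15686 in DMSO (log2 −1.51 ± 0.16). In LNCaP95, 12 of 15 genes of that list were called higher and 1 lower at each dose, with CTH, an enzyme of cysteine synthesis, at log2 1.69 ± 0.15 and PCK2 at 1.60 ± 0.13 at 500 nM. In 22Rv1 0 of 15 were called in either direction at either dose.

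Transporters and tRNA synthetases followed the same split between LNCaP and LNCaP95. Of 9 amino acid transporters tested, 7 were lower at 500 nM and 9 at 100 nM in LNCaP, and 9 were higher at each dose in LNCaP95. SLC7A11, the cystine importer, rose to 3907 normalized counts at 500 nM in LNCaP95, against 999.9 in DMSO (log2 1.98 ± 0.14), and fell to 486 at 100 nM in LNCaP, against 1743 in DMSO (log2 −1.90 ± 0.25). All 12 tRNA synthetases on the list were called lower at each dose in LNCaP, and 10 were called higher at 500 nM and 11 at 100 nM in LNCaP95. In 22Rv1, WARS was the 1 of 12 called, higher at 500 nM (log2 0.75 ± 0.085) and at 100 nM (0.71 ± 0.085).

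Other stress response targets split too, with exceptions in 22Rv1. Of 20 tested in LNCaP, 2 were called higher and 8 lower at 500 nM, and 2 and 14 at 100 nM; STC2, a secreted glycoprotein hormone, fell (log2 −1.50 ± 0.16 at 500 nM) and SQSTM1, the autophagy receptor p62, rose (log2 1.18 ± 0.23). Of 19 in LNCaP95, 16 were higher and 0 lower at each dose, among them GDF15, a stress-induced cytokine (log2 2.04 ± 0.16 at 500 nM), and SESN2, which restrains mTORC1 (log2 1.99 ± 0.14). In 22Rv1, 4 of 19 were higher and 0 lower at each dose, and GDF15 had 6862 normalized counts at 500 nM, against 1972 in DMSO (log2 1.85 ± 0.21, limma adjusted p = 0.000336). GDF15 and SQSTM1 are known to answer to other stress pathways as well.

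The genes upstream of the members had calls in both directions. Of 21 eIF2 kinases and genes of eIF2 control, 2 were higher and 4 lower at 500 nM in LNCaP, 4 and 5 at 100 nM, 0 and 0 at each dose in 22Rv1, 7 and 6 at 500 nM and 7 and 8 at 100 nM in LNCaP95. In LNCaP95, where 28.2% of all genes were called higher and 24.1% lower at each dose, these counts are near the share of all genes. EIF2AK3, which encodes PERK, the kinase of endoplasmic reticulum stress, rose at 500 nM in LNCaP to 1421 ± 156 normalized counts, against 659 ± 55.2 in DMSO (SD, n = 3 each; log2 1.11 ± 0.12, limma adjusted p = 0.000115). It rose in LNCaP95 as well, to 2688 ± 328 at 500 nM, against 1087 ± 55.3 in DMSO (log2 1.30 ± 0.092, limma adjusted p = 3.87e-07). In 22Rv1 it was not called (log2 0.30 ± 0.17, limma adjusted p = 0.322). These are mRNA levels, kinase activity was not measured, and the part of EIF2AK3 in the changes of the members was not tested. EIF2AK4, which encodes the amino acid sensor GCN2 and is named after its values were seen, had a log2 difference of −0.18 ± 0.069 in LNCaP at 500 nM, which was not called, and fell by 0.41 on the log2 scale in LNCaP95 at 500 nM.

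Calls of endoplasmic reticulum chaperones and sensors varied with the line. Of 16, 1 was higher and 1 lower at 500 nM in LNCaP, and 0 and 5 at 100 nM. In 22Rv1, 2 were higher and 0 lower at each dose. In LNCaP95, 9 were higher and 1 lower at 500 nM, and 8 and 1 at 100 nM. Of all genes, 11% were higher and 9.83% lower at 500 nM in LNCaP, and 13.7% and 11.6% at 100 nM. The shares were 3.47% and 3.5% at 500 nM in 22Rv1, 3.19% and 3.36% at 100 nM, and 28.2% and 24.1% at each dose in LNCaP95. HSPA5, the chaperone BiP, was the gene that rose at 500 nM in LNCaP (39274 normalized counts at 500 nM and 27198 in DMSO; log2 0.52 ± 0.13), and ERN1, which encodes the sensor IRE1, was the one that fell (log2 −0.72 ± 0.17). DNAJB9, a chaperone induced through IRE1 and XBP1, rose to 2912 at 500 nM in LNCaP95, against 671 in DMSO (log2 2.13 ± 0.11), and had a log2 difference of 0.70 ± 0.14 in 22Rv1, also called. Of 22 bZIP factors that can pair with the members or are related to them, 2 were higher and 5 lower at 500 nM in LNCaP, and 2 and 9 at 100 nM, with JDP2, a repressor that binds similar sites, at log2 −1.40 ± 0.16 at 500 nM. In LNCaP95, 10 were higher and 4 lower at 500 nM, and 10 and 5 at 100 nM. The same shares of all genes apply to the bZIP counts, and the 2 called higher at each dose in LNCaP are near them. In 22Rv1, 0 were higher and 2 lower at each dose, and these were FOS (log2 −1.98 ± 0.19 at 500 nM, with means of 1578 at 500 nM and 6058 in DMSO) and JUN (log2 −0.89 ± 0.12), factors of the immediate early response.

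**Figure D4:**
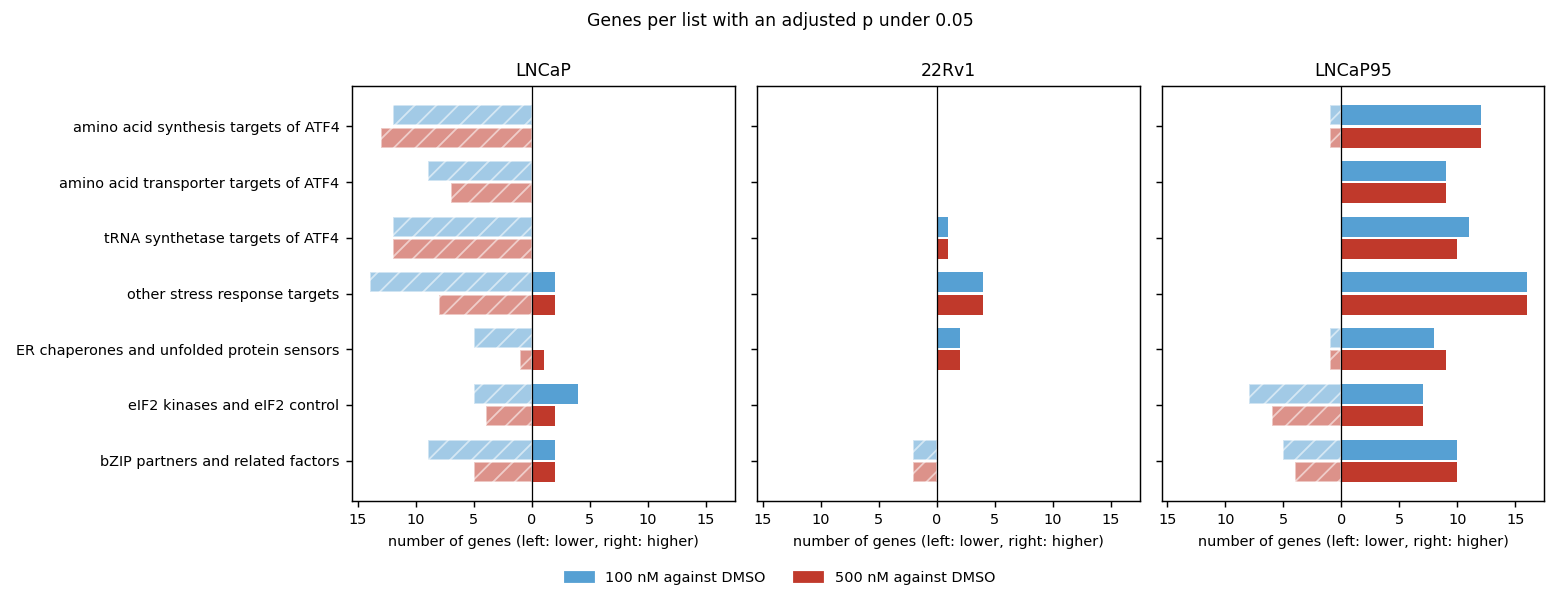
Number of genes per list with an adjusted p under 0.05 against DMSO (x axis; solid bars to the right, higher; hatched bars to the left, lower) at 100 nM (blue) and 500 nM (red) in the 3 lines, by list (y axis). Bars of the 3 lists of ATF4 targets run to the left in LNCaP, with 13, 7 and 12 genes at 500 nM, and to the right in LNCaP95, with 12, 9 and 10.

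Among themselves, the members varied together to different degrees. After each line's mean was taken from the log2 values, Pearson's r over the 27 libraries ran from 0.247 to 0.953 in the 45 pairs of members, with a median of 0.759. The lowest 5 all held PPP1R15A, from 0.247 with CEBPB to 0.364 with CHAC1, and the next lowest was that of ATF3 with CEBPB (0.380). PPP1R15A was closer to ATF3 (0.818) and DDIT3 (0.647). The libraries share lines and treatments, so r is a description and carries no test. Of 10817 genes with a mean of at least 50, the gene most like ATF4 was ADM2 (r = 0.957), followed by ASNS (0.955) and PSAT1 (0.953). ADM2 was also the most like NUPR1 (0.959) and TRIB3 (0.967). XPOT was the most like CEBPG (0.974), SESN2 the most like DDIT3 (0.947), JDP2 the most like CEBPB (0.944) and TUBE1 the most like CHAC1 (0.954). ATF3 had RIMS2 (0.921), PPP1R15A had MPP1 (0.870) and ATF5 had FIZ1 (0.800) as their nearest.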

How the data were processed

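Poly(A) RNA of 27 libraries was sequenced with a directional kit, per the labels' protocols. The deposited table holds a signal per gene, the authors' normalized count, and STAR 2.3.1z4, featureCounts, DESeq and build hg19 are named in the submitters' processing notes. The values proved to be whole reads times 1 constant per library (27 of 27 libraries, 100% of values, tolerance 1e-06), so depth was known, with 1 read worth 0.757 to 1.39. Normalized counts had been foreseen as the unit, and tests ran on log2(value + 1) with limma 3.58.1 (R 4.3.3) after a filter (10 or more in at least 3 fitted libraries). Fits within a line used 9 libraries, and line differences used all 27. All 10 genes passed the filter in every comparison. Fold changes are on the log2(value + 1) scale. edgeR 4.0.16 and DESeq2 1.42.0 on whole reads, other pseudocounts, no filter, scaling to equal totals, a replicate block and leaving out libraries were alternatives. Same-numbered libraries deviated together (r over 0.1 in all 3 pairs) in every comparison within LNCaP95 and, in LNCaP, for 500 nM with DMSO and with 100 nM. No replicate pair agreed within sampling noise (lowest chi-square per degree of freedom 4.97). Other genes were named where they had one of the 4 largest log2 differences among called genes of a list (mean of 50 or more in the higher group), and likeness was Pearson's r after line means were removed. Exon overlaps came from GENCODE release 29. The 10 genes and the lists were chosen with earlier results of these data known. The test was also run on simulated data.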

Additional observations from a re-analysis of the deposited data

Results flagged for a closer look

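The effect of IPI-9119 against DMSO differed between lines by the test of the difference itself (limma, all 27 libraries, adjusted p under 0.05 over all genes) for 53 values, and each is flagged for that reason. At 500 nM, the values were as follows. The effect in 22Rv1 minus that in LNCaP was called for 7 genes, with log2 values for ATF4 1.02, ATF3 −1.41, CEBPB 1.09, CEBPG 0.84, NUPR1 0.83, TRIB3 1.46 and CHAC1 1.21. The effect in LNCaP95 minus that in LNCaP was called for 9 genes, with log2 values for ATF4 2.13, ATF3 0.65, ATF5 0.74, DDIT3 2.20, CEBPB 2.16, CEBPG 1.47, NUPR1 2.10, TRIB3 2.89 and CHAC1 3.65. The effect in LNCaP95 minus that in 22Rv1 was called for 10 genes, with log2 values for ATF4 1.11, ATF3 2.06, ATF5 0.73, DDIT3 2.53, CEBPB 1.07, CEBPG 0.63, NUPR1 1.27, TRIB3 1.43, CHAC1 2.43 and PPP1R15A 1.495.

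At 100 nM, against the same DMSO libraries, the values were as follows. The effect in 22Rv1 minus that in LNCaP was called for 7 genes, with log2 values for ATF4 1.58, DDIT3 1.39, CEBPB 1.45, CEBPG 1.23, NUPR1 1.25, TRIB3 2.10 and CHAC1 1.90. The effect in LNCaP95 minus that in LNCaP was called for 10 genes, with log2 values for ATF4 2.52, ATF3 1.86, ATF5 1.04, DDIT3 3.49, CEBPB 2.44, CEBPG 1.91, NUPR1 2.39, TRIB3 3.58, CHAC1 4.38 and PPP1R15A 1.27. The effect in LNCaP95 minus that in 22Rv1 was called for 10 genes, with log2 values for ATF4 0.93, ATF3 1.93, ATF5 0.95, DDIT3 2.10, CEBPB 0.996, CEBPG 0.68, NUPR1 1.14, TRIB3 1.48, CHAC1 2.48 and PPP1R15A 1.38. Groups of 3 libraries were too small for a test for single outlying libraries. The libraries said above to stand apart were picked from descriptive measures.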

How the results depend on the processing

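Of 3150 values of members under alternatives, 3052 kept direction and side of the threshold, 59 lost and 39 gained the call and 0 reversed, while 71 uncalled values changed sign. Of 118 called values, 106 kept the call under every alternative. In LNCaP, 500 nM against 100 nM had 1 member called, and 0 with the replicate block, 0 with only the 6 libraries compared, 4 with DESeq2, 2 with all 27 libraries in 1 fit, 10 with replicates 2 and 3 only, and 0 to 3 with a library left out. In 22Rv1, 500 nM against DMSO had 2, and 1 with no filter, 4 with equal totals, 1 with the replicate block, 4 with DESeq2, 4 with only the 6 libraries compared, 0 with all 27 and 0 to 3 with a library left out, while 100 nM against DMSO had 1, and 2 with equal totals, 2 with DESeq2, 0 with only the 6 libraries and 1 to 2 with a library left out. Shares of all genes called in each setting are not given beside these counts. The counts thus do not tell whether members moved more than other genes. The cause was not tested. Numbers do not pair libraries across lines. With the block, the differences of 22Rv1 and LNCaP95 from LNCaP at 500 nM had 8 and 8 members called. In DMSO, 22Rv1 against LNCaP had 5 and LNCaP95 against 22Rv1 had 7. The block as coded compared the lines in DMSO at the fitted level of replicate 1, so these DMSO counts do not measure pairing. The block moved no other count.

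Equal totals moved the share of called genes that were higher by over 10 points: to 68.9% with equal totals, against 52.8%, in LNCaP at 500 nM, 65.7% against 54.3% at 100 nM, 26.6% against 49.8% in 22Rv1 at 500 nM and 26.9% against 48.7% at 100 nM. For effects of 22Rv1 minus LNCaP it was 21.4% against 47.4% at 500 nM and 22.7% against 44.9% at 100 nM. For LNCaP95 at 500 nM it was 39.5% against 50.9% (minus LNCaP) and 61.6% against 51.2% (minus 22Rv1), and in DMSO 63.3% against 51.1% for LNCaP95 over LNCaP. With 3 libraries a group, 1 library decided several calls. The lowest value of a member was 127, that of PPP1R15A in LNCaP DMSO replicate 1, and the part of depth in the calls was not tested.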

Other observations

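Genes downstream of ATF4 differed between the lines in DMSO as well (limma over all 27 libraries, adjusted p under 0.05, where 66.5% to 76.1% of all genes were called). All 12 tRNA synthetases on the list were lower in 22Rv1 than in LNCaP, with a median log2 difference of −0.77, and 11 of 12 were lower in LNCaP95 than in LNCaP, with a median of −0.70. Of 15 amino acid synthesis targets, 10 were lower and 3 higher in 22Rv1 than in LNCaP, and likewise 10 and 3 in LNCaP95 than in LNCaP. Of 20 other stress response targets, 15 were lower and 1 higher in LNCaP95 than in LNCaP. Against 22Rv1, LNCaP95 had 5 synthetases higher and 2 lower, and 5 synthesis targets each way. Amino acid transporters did not follow the other target lists throughout. Of 9 tested, 4 were higher and 4 lower in 22Rv1 than in LNCaP. In LNCaP95, 0 were higher and 5 lower than in LNCaP, and 2 and 6 than in 22Rv1. Of 16 endoplasmic reticulum chaperones and sensors, 11 were higher and 2 lower in LNCaP95 than in LNCaP, and 10 and 3 than in 22Rv1. Of all genes, 39.3% were higher and 35.5% lower in 22Rv1 than in LNCaP. In LNCaP95, 34% were higher and 32.5% lower than in LNCaP, and 35.4% and 40.8% than in 22Rv1.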
